A study of Mus musculus with 22 samples.

Results

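Crotonylation and acetylation of the same histone residue, lysine 9 of histone H3 (H3K9cr and H3K9ac), were set against each other in the telencephalon of mouse embryos at embryonic day 13.5 (E13.5). The comparison used 4 of the 22 samples of the series, namely 2 H3K9cr and 2 H3K9ac ChIP-seq libraries, as 1 deposited peak list each on chromosomes 1 to 19 and X. The whole series covered H3K9cr, H3K9ac, the lactylation mark H3K18la and RNA at E13.5 and E16.5, and ATAC-seq, a measure of open chromatin, at E13.5. All groups used here came from ICR mice, with no genetic change or treatment named in the labels: H3K9cr, H3K9ac and H3K18la at E16.5 and at E13.5, RNA at both stages and ATAC-seq at E13.5, each with 2 libraries stated to be biological replicates. Chromatin was prepared without crosslinking (native ChIP), and both antibodies came from PTM Biolab. Each mark had 1 antibody lot for both E13.5 libraries, so mark and antibody cannot be told apart. The number of embryos pooled per library is unknown here, and input libraries were not analysed here.

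Lysine acetylation neutralises the charge of the histone tail and is found at active promoters and enhancers. Crotonylation adds a longer, planar acyl group to the same lysine, is made from crotonyl-CoA by some of the same acyltransferases, such as p300 and CBP, and is bound preferentially by YEATS domains, whereas bromodomains prefer acetylation. The telencephalon at mid-gestation holds radial glia, the stem cells of the cortex, together with intermediate progenitors and young neurons. In a dissected tissue, a mark carried by fewer cells and a mark at a lower level per cell cannot be told apart.

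The H3K9cr lists held 32556 and 28960 peaks and the H3K9ac lists 37305 and 34520, over 41.9 and 35.4 Mb for H3K9cr and 45.9 and 45.4 Mb for H3K9ac. The read depth behind each list is unknown, and every list ended near a −log10 q-value of 2 (lowest values 2.01 and 2.03 in H3K9cr, 2.08 and 2.02 in H3K9ac), so a missing peak says only that the caller's threshold was not reached. Peaks sharing at least 1 bp were joined into 41572 regions. A region was called for a mark when both of its lists had a peak there. With 2 lists against 2, an exact permutation test cannot go below a two-sided p of 0.333, so no p is given for a region. Instead, the difference between the marks is set beside the difference between the 2 lists of 1 mark.

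Promoter letters are shown first for some of the starts named for a difference between the marks, not always the largest one. The sequences can thus be read beside the values that follow. They are the 300 bases from 250 before to 50 after a transcription start, taken from RefSeq (GRCm38.p6), 5′ to 3′ on the gene's strand. Capitals mark each CpG. Only H3K9cr lists had a peak at the first pair, only H3K9ac lists at Adamtsl2, fold enrichment ranked higher for H3K9cr at Gxylt2 and Kcnj5 and for H3K9ac at Btbd17 and Fam118a, and width ranked higher for H3K9cr at Jakmip3 and Cebpa and for H3K9ac at Lrp8.
Gm14322, chr2:177759038-177759337, plus strand: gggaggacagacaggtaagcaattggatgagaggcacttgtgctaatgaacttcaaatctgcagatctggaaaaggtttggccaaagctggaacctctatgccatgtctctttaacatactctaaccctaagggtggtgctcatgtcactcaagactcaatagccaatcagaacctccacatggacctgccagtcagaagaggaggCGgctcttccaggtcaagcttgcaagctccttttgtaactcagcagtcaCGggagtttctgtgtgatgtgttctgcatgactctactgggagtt
4930447C04Rik, chr12:72917716-72918015, minus strand: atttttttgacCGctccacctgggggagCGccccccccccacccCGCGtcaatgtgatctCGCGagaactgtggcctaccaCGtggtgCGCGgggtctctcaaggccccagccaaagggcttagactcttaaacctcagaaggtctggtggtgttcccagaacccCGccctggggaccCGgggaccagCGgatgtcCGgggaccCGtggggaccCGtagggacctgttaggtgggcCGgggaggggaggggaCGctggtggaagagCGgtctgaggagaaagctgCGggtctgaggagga
Adamtsl2, chr2:27079129-27079428, plus strand: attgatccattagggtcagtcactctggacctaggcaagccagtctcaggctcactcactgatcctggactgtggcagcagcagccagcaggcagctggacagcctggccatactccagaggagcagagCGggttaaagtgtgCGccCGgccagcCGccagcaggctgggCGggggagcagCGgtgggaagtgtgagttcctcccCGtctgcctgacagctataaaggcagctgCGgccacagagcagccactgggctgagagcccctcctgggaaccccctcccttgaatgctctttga
Gxylt2, chr6:100704484-100704783, plus strand: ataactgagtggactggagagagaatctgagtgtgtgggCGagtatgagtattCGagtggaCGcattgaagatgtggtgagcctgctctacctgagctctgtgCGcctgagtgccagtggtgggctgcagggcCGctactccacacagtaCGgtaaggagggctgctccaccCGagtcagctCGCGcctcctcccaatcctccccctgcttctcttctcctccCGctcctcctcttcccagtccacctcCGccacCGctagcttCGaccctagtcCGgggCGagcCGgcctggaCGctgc
Kcnj5, chr9:32344295-32344594, minus strand: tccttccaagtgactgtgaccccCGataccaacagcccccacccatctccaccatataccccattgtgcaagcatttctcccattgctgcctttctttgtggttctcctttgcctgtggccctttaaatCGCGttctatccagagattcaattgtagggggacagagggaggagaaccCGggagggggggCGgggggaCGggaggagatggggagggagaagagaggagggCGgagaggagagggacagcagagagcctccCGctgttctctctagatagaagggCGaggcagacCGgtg
Btbd17, chr11:114795843-114796142, minus strand: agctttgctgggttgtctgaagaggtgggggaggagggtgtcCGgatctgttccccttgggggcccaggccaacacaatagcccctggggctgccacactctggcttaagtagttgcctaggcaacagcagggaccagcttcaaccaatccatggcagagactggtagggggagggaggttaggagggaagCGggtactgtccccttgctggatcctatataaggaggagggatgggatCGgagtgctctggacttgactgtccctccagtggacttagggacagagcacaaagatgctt
Fam118a, chr15:85042475-85042774, plus strand: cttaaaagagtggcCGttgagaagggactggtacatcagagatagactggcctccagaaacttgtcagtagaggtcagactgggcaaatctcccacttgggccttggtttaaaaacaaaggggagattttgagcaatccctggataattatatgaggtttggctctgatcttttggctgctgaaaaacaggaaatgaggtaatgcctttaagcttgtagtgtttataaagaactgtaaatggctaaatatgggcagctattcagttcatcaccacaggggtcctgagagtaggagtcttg
Jakmip3, chr7:138940480-138940779, plus strand: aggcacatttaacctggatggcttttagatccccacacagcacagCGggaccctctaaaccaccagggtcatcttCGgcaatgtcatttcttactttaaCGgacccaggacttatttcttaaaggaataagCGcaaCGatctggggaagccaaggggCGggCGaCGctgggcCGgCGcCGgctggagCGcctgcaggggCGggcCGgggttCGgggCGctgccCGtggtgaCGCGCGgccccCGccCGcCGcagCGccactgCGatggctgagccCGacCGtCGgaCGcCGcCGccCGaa
Cebpa, chr7:35119043-35119342, plus strand: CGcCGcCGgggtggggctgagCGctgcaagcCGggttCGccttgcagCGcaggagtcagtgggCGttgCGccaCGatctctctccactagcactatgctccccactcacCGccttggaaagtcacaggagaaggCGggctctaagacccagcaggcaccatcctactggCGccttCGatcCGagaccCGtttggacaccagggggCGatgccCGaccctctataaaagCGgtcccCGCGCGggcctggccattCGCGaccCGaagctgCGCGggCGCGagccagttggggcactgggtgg
Lrp8, chr4:107822911-107823210, plus strand: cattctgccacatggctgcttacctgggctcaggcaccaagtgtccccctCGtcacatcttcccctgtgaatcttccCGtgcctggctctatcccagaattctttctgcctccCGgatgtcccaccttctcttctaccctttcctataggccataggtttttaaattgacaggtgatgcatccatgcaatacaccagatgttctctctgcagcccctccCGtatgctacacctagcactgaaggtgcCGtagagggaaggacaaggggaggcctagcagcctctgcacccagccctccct
CpG number varied widely among these starts. It was 2 at Gm14322 and 19 at 4930447C04Rik, against 8 at Adamtsl2. It was 17 at Gxylt2 and 10 at Kcnj5, against 3 at Btbd17 and 1 at Fam118a. It was 32 at Jakmip3 and 29 at Cebpa, against 5 at Lrp8. At the other starts named by the same rule, where sequences are not shown, the spread was as wide. By fold, CpG number was 9 at Extl1, 13 at Htr1f and 24 and 2 at the starts of Deup1 for H3K9cr, against 19 at Zfp780b and 4 at Casq1 for H3K9ac. By width it was 13 at Ccp110, 41 at Raver2 and 39 at Syde2 for H3K9cr. Mier1, near a region with H3K9ac only, had 49, more than any start shown. Over all 21045 starts in the RefSeq table the median was 13.

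The same regions carried both marks in most cases. All 4 lists had a peak in 24138 regions (58.1% of 41572), both H3K9cr lists and neither H3K9ac list in 282 (0.678%), and both H3K9ac lists and neither H3K9cr list in 2256 (5.43%). The other 14896 regions (35.8%) were mixed, and 9084 of them were in 1 list only, 2019 in an H3K9cr list and 7065 in an H3K9ac list. Counted in bases, lists of different marks shared nearly as much as lists of the same mark. The shared part of the joint length (Jaccard index) was 0.76 and 0.75 for H3K9cr list 1 against the H3K9ac lists and 0.71 for H3K9cr list 2 against either, beside 0.77 between the H3K9cr lists and 0.77 between the H3K9ac lists. Of the bases of H3K9cr list 2, 95.2% and 94.9% lay in the H3K9ac lists, and of those of list 1, 90.8% and 89.4%.

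The number of regions with 1 mark only changed with the length of the lists and with how many lists were compared. With every list limited to its 28960 peaks of lowest q-value, 648 regions had H3K9cr only and 860 H3K9ac only. With a single list for 1 of the marks, the H3K9cr-only count was 752 without H3K9cr list 1, 1882 without H3K9cr list 2, 880 without H3K9ac list 1 and 592 without H3K9ac list 2. The H3K9ac-only count was then 4684, 2777, 5476 and 6840 for the same omissions. In each of these settings H3K9ac-only regions outnumbered H3K9cr-only regions.

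Regions with 1 mark held weak, narrow peaks. The 282 H3K9cr-only regions had a median fold enrichment of 4.94 and 4.81 in the H3K9cr lists, which put the median region at rank 18.7 and 11.9 on a scale from 0 to 100 within those lists. The 2256 H3K9ac-only regions had 4.36 and 4.2 in the H3K9ac lists, at ranks 19.8 and 17.1. Only 7 and 4 of the H3K9cr-only regions, and 11 and 5 of the H3K9ac-only regions, were above the median peak of their lists. Regions of all 4 lists had medians of 23.2 and 20.1 for H3K9cr and 17.7 and 15.99 for H3K9ac. Median region length was 401.5 bp for H3K9cr only, 543 bp for H3K9ac only and 1631 bp for all 4 lists.

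Place differed between the 1-mark classes. Of the H3K9cr-only regions, 52 (18.4%) lay within 2000 bp of a transcription start of a protein-coding gene, against 56 (2.48%) of the H3K9ac-only regions and 44.1% of regions of all 4 lists. Gene bodies held 29.4% of the H3K9cr-only and 55.1% of the H3K9ac-only regions, and stretches outside genes 44.3% and 41.1% in that order. The RefSeq start table lacks 4357 of 21631 protein-coding genes. Regions near either end of such a gene, 7.80% of H3K9cr-only, 1.33% of H3K9ac-only and 10.5% of 4-list regions, were counted neither at starts nor away from them. With lists of equal length, 1.86% of H3K9ac-only regions lay at a start.

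The lactylation mark divided the 1-mark regions more sharply than any other list examined. At E13.5 a peak was present in both H3K18la lists in 61 (21.6%) of the H3K9cr-only regions, against 2024 (89.7%) of the H3K9ac-only regions and 85.7% of regions of all 4 lists. At starts the values were 1 of 52 (1.92%) for H3K9cr only and 34 of 56 (60.7%) for H3K9ac only, and away from starts 28.8% for H3K9cr only and 90.8% for H3K9ac only. The shares stood apart within classes of region length as well. Among regions under 400 bp, 27 of 138 H3K9cr-only regions (19.6%) and 436 of 509 H3K9ac-only regions (85.7%) had H3K18la, and among those of 400 to 599 bp, 29 of 116 and 723 of 824 (87.7%), in the same order. With lists of equal length, 32.3% of H3K9cr-only and 96.2% of H3K9ac-only regions had H3K18la. H3K18la lists were longer than those of either mark, with 73359 and 69145 peaks.

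Open chromatin did not separate them in the same way. Both ATAC-seq lists had a peak in 8.16% of H3K9cr-only, 8.95% of H3K9ac-only and 51.7% of 4-list regions. Single lists gave 14.2% and 14.5% for H3K9cr only, and 15.6% and 17.0% for H3K9ac only.

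At E16.5 most H3K9cr-only regions carried both marks. Both E16.5 H3K9cr lists had a peak in 74.8% of them and both E16.5 H3K9ac lists in 81.9%, and 69.1% had all 4. Only 2 of the 282 were again H3K9cr only. Of the H3K9ac-only regions fewer carried either mark. Both E16.5 H3K9cr lists had a peak in 42.6% and both E16.5 H3K9ac lists in 60.5% of the 2256, 39.7% had all 4, and 18.3% had no peak of either mark, against 3.19% of the H3K9cr-only regions. Of the 2256, 139 were again H3K9ac only. E16.5 lists were longer, with 41063 and 42293 peaks for H3K9cr and 49640 and 50656 for H3K9ac, against 32556 and 28960 for H3K9cr and 37305 and 34520 for H3K9ac at E13.5.

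**Figure D1:**
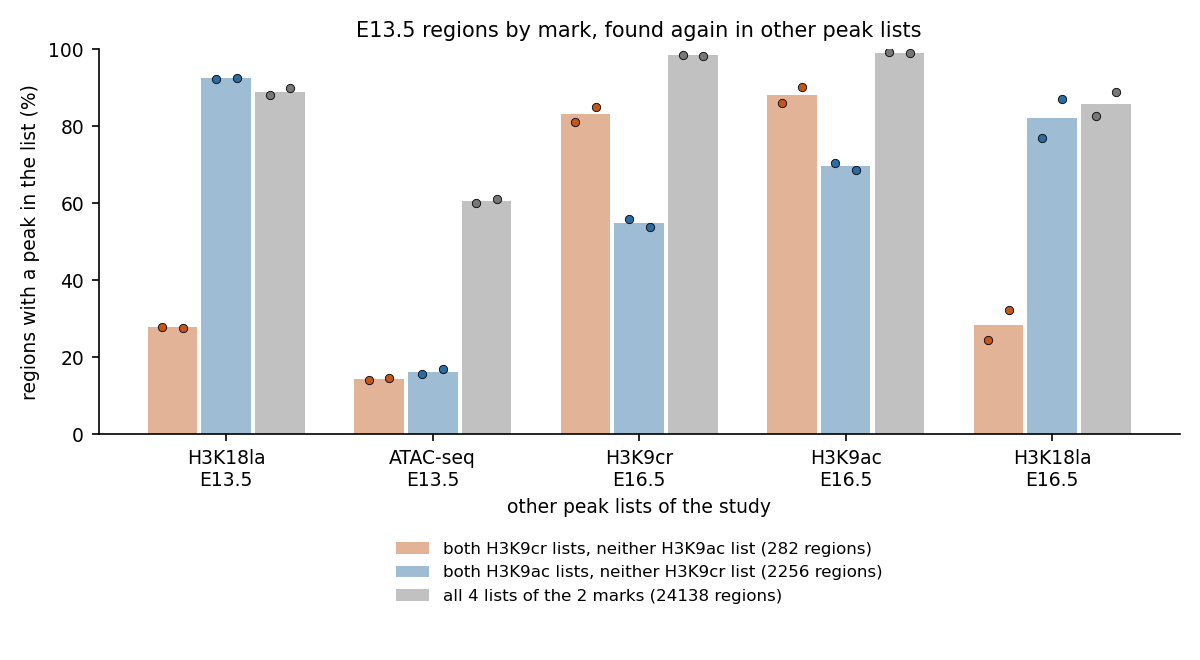
Share of E13.5 regions (percent, vertical axis) that had a peak in each of 10 other peak lists, for regions of both H3K9cr lists and neither H3K9ac list, of both H3K9ac lists and neither H3K9cr list, and of all 4 lists. Points are the 2 lists of a group and bars their mean: H3K18la at E13.5 lay in 28.0% and 27.7% of H3K9cr-only regions, and in 92.2% and 92.6% of H3K9ac-only regions.

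The H3K9cr-only regions with the highest fold enrichment at a gene illustrate how modest these peaks were. The highest lay in Pakap, which encodes scaffold proteins of the membrane and of protein kinase A, at chr4:57673511-57673769 in GRCm38, 105263 bp from the nearest start in the table. Its fold enrichment was 12.7 and 18.2 in the H3K9cr lists, with peaks of 239 and 255 bp, and neither H3K9ac list called it. Adamts2, a procollagen-processing protease, followed with 13.2 and 7.28 in its gene body. Gm14322 had 9.46 and 10.4 at its start, and belongs to a stretch of chromosome 2 with several gene models of similar name, where reads of near-identical copies can be split. Nat2, an arylamine N-acetyltransferase, had 9.77 and 10.1, and Myo7a, the myosin of hair cell stereocilia, 10.01 and 8.23 at 768 bp from its start. At E16.5, Pakap, Adamts2, Nat2 and Myo7a had peaks in all 4 lists of the marks.

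Of the H3K9ac-only regions at a gene, the strongest lay in Nek10, a kinase gene, at chr14:14863971-14864361, with folds of 12.3 and 8.26 in the H3K9ac lists and none in the H3K9cr lists. A region 1006 bp from the start of Ifna1, an interferon alpha gene of a cluster of similar copies, had 10.5 and 6.93, and was called in no E16.5 list of either mark. Frmd4b had 8.97 and 7.91 over 1085 and 1321 bp. Mfng, a Fringe glycosyltransferase that modifies Notch, had 8.46 and 7.73, and at E16.5 was again called in both H3K9ac lists (6.04 and 6.74) and in neither H3K9cr list. Gpm6a, a membrane glycoprotein of growing axons, had 7.95 and 7.46. All 5 were called in both E13.5 H3K18la lists, whereas none of the 5 H3K9cr-only regions above was.

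Genes were assigned a mark when both of its lists had a peak within 2000 bp of a start. Both marks were present at 10613 of 17274 protein-coding genes (61.4%). H3K9cr without any H3K9ac peak was found at 36 genes (0.208%) and H3K9ac without any H3K9cr peak at 20 (0.116%), and 6123 genes had no peak in any list. With lists of equal length, the H3K9cr count was 100 genes. Leaving out a list gave 68 (H3K9cr list 1), 114 (H3K9cr list 2), 123 (H3K9ac list 1) and 72 (H3K9ac list 2) genes with H3K9cr only, and 85, 33, 44 and 70 genes with H3K9ac only, so that H3K9ac had the larger count without H3K9cr list 1.

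The 36 H3K9cr-only genes had low folds, with a median of 5.24 and 5.34 and a highest value of 10.01 and 10.4 in the H3K9cr lists. Among them were 4 receptor genes whose RNA did not exceed 1.49 CPM (counts divided by the scaled library total) in either E13.5 library. Htr6, a serotonin receptor, had 5.44 and 6.44, Drd5, a dopamine receptor, 3.63 and 3.94, Calcr, the calcitonin receptor, 6.30 and 3.87, and Nmbr, the neuromedin B receptor, 5.20 and 6.44. These were chosen after their values were seen. Gdf7, a secreted factor of the roof plate and cortical hem, had 4.10 and 4.52. At 34 of the 36 genes the window touched a region called as H3K9cr only, and at Foxc1 and Mrap2 no region but a mixed one. At E16.5, 28 of the 36 had both marks, 1 H3K9cr only and 7 were mixed. Both H3K18la lists at E13.5 had a peak at 1 of the 36, and both ATAC-seq lists at 2.

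The 20 H3K9ac-only genes had median folds of 4.36 and 4.47 in the H3K9ac lists. At 6 of them (Car5a, Cnr2, Des, H2bc23, Myo1h and Pappa2) the window touched no region called as H3K9ac only. At Car5a, H2bc23 and Pappa2 it touched a region of all 4 lists, whose H3K9cr peaks lay outside the window. These genes are therefore not places without H3K9cr nearby. Car5a, a mitochondrial carbonic anhydrase, had the highest folds of the group, 27.3 and 18.3 over peaks of 1817 and 1923 bp, and no E16.5 list of either mark had a peak there. H2bc23, a histone H2B gene, had 22.0 and 16.5. Both H3K18la lists at E13.5 had a peak at 15 of the 20 genes, against 1 of the 36 with H3K9cr only, and both ATAC-seq lists at 2 of the 20. At E16.5, 11 of the 20 had both marks, none H3K9ac only, 4 no peak and 5 were mixed.

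Gene lists of cell types and pathways placed 3 members in a 1-mark class. Hepacam, an adhesion protein of the astrocyte lineage, was the member with H3K9ac and no H3K9cr peak, with folds of 3.93 and 4.26 in the H3K9ac lists. At E16.5 it had 27.8 and 22.8 in the H3K9cr lists and 25.8 and 21.3 in the H3K9ac lists. Its RNA was 25.6 and 23.2 CPM at E16.5, against 1.74 and 2.21 CPM at E13.5 (log2 difference 3.62, SE 0.163, edgeR adjusted p = 1.6e-06). The members with H3K9cr and no H3K9ac peak were Cldn5, the tight-junction claudin of brain endothelium (3.72 and 4.60 in the H3K9cr lists), and Foxc1, a forkhead factor of the meninges (3.78 and 4.64). The window at Foxc1 touched no region called as H3K9cr only. Cldn5 RNA was 73.2 and 74.4 CPM at E16.5, against 13.5 and 14.2 CPM at E13.5, and Foxc1 RNA 5.42 and 6.38 CPM at E16.5, against 2.64 and 2.59 CPM at E13.5.

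Lists of progenitors, neurons and general cell functions were marked almost throughout, by both marks. All members with a start in the table carried both marks in the lists of telencephalon and forebrain identity (10 of 10), radial glia and neural progenitors (13 of 13), intermediate progenitors (8 of 8), synapse (15 of 15), cell cycle (16 of 16), glycolysis and lactate (19 of 19), nuclear oxidative phosphorylation (13 of 13), cytosolic ribosomal proteins (12 of 12), acyl-CoA metabolism (11 of 11), replication-dependent histones (20 of 20) and immediate early genes (9 of 9). Acyltransferases, deacylases and acyl readers had 8 of 8 each. Neither mark was found at the microglia list (0 of 8) or at Hox genes (0 of 15), and 1 of 7 erythroid genes and 1 of 14 genes silent in brain had both. Astrocyte (4 of 9) and oligodendrocyte genes (1 of 4) carried both marks in part. So did the lists of endothelial cells and pericytes (4 of 8) and of meninges and choroid plexus (2 of 6). In the last list, Kl and Otx2 were the genes with both marks. The share over all genes was 61.4%.

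**Figure D2:**
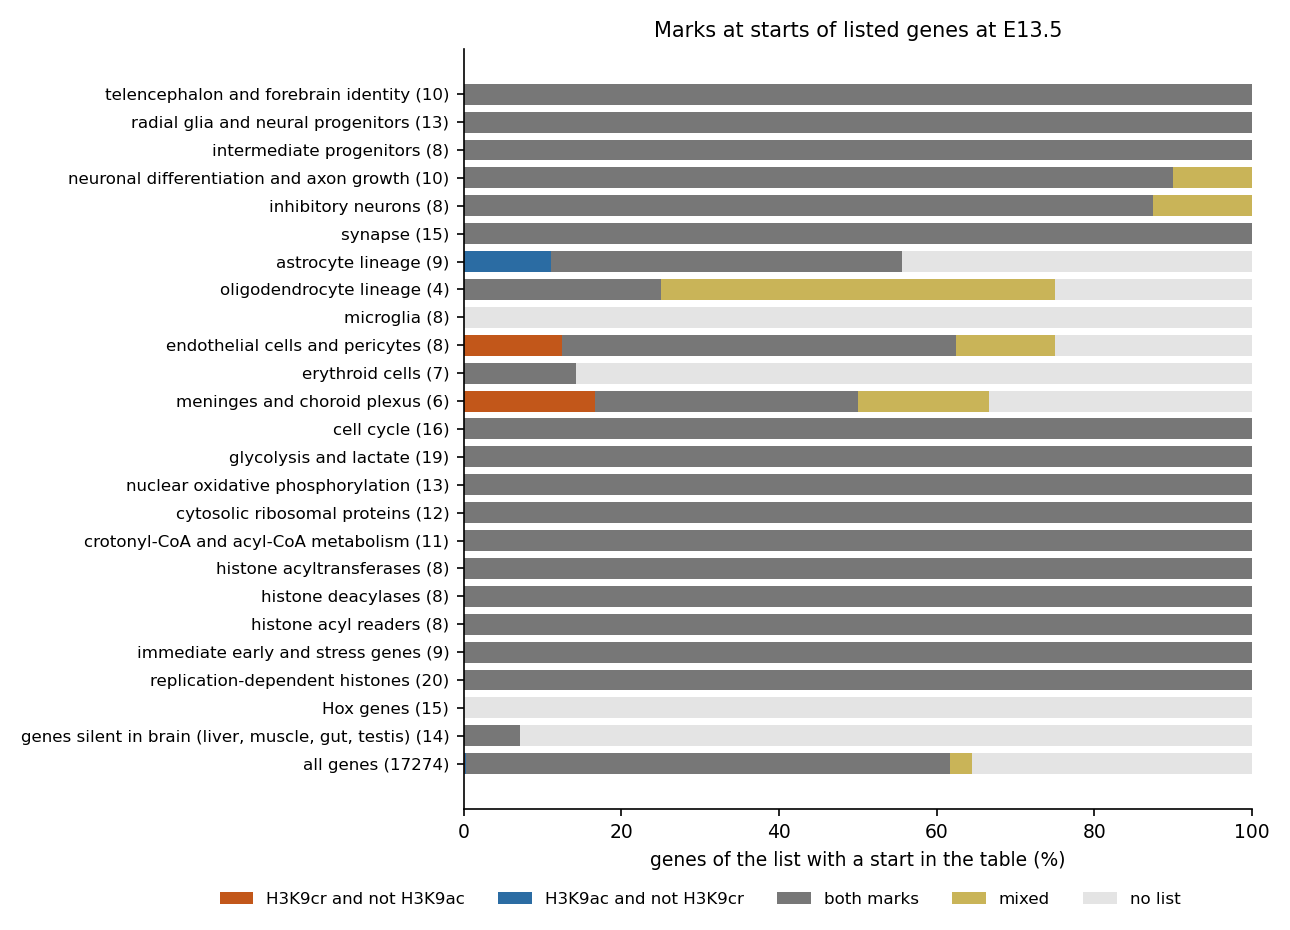
Share of genes (percent, horizontal axis) with H3K9cr only, H3K9ac only, both marks, a mixed pattern or no peak within 2000 bp of a start at E13.5, for each gene list, with the number of genes in parentheses. Genes with 1 mark only appear in 3 lists, as 1 gene each.

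Within the 24138 regions called by both marks, the order of the regions was nearly the same for H3K9cr and H3K9ac. Each region was ranked within each list from 0 (lowest) to 100 (highest) by its highest fold enrichment, and separately by its width, the summed length of its peaks. Spearman's rho for fold enrichment was 0.94 to 0.96 between lists of different marks, and 0.97 between the H3K9cr and 0.95 between the H3K9ac lists. For width it was 0.90 to 0.93 between marks, and 0.94 and 0.95 within them. H3K9cr list 1 was as close to H3K9ac list 1 (0.96) as to H3K9cr list 2 (0.97) by fold enrichment. These correlations run over 24138 regions of the same 4 libraries and describe the lists only.

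Each list had its highest fold in a region of all 4 lists (261 and 253 in H3K9cr, 196 and 193 in H3K9ac). Ranks were taken over 4-list regions only, so the regions named next were shared by selection. Among 4-list regions, the 3 highest mean ranks of fold enrichment were at starts of Tia1, Pcgf3 and Klf7. Tia1 is an RNA-binding protein of stress granules, Pcgf3 a Polycomb ring finger protein and Klf7 a zinc finger factor of neuronal growth. Tia1 had folds of 261 and 244 in the H3K9cr lists and 182 and 172 in the H3K9ac lists. Pcgf3 had 228 and 199 in H3K9cr and 156 and 147 in H3K9ac. Klf7 had 235 and 208 in H3K9cr and 152 and 145 in H3K9ac. The H3K9cr folds were the larger at all 3, as they were over all 4-list regions (medians 23.2 and 20.1 in H3K9cr, 17.7 and 15.99 in H3K9ac). Folds of different lists are not on a common scale, so the ranks, not the folds, carry the comparison.

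Both H3K9cr lists ranked a region higher by fold enrichment than both H3K9ac lists at 4971 regions (20.6%), and both H3K9ac lists higher at 5017 (20.8%). A gap of at least 20 rank points was rare, at 19 regions (0.0787%) for H3K9cr and 20 (0.0829%) for H3K9ac. By width, H3K9cr ranked higher at 7768 regions (32.2%) and H3K9ac at 4094 (17.0%). The large width gaps ran the other way, with 34 regions (0.141%) for H3K9cr and 423 (1.75%) for H3K9ac.

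Comparing 3 lists in place of 4 raised every one of these counts, since fewer ranks have to stay apart. Fold enrichment then ranked higher for H3K9cr at 8355 regions without H3K9cr list 1, 8318 without H3K9cr list 2, 9068 without H3K9ac list 1 and 8873 without H3K9ac list 2, and for H3K9ac at 8164, 8017, 8857 and 8586 for the same omissions. H3K9cr had the larger count in all 4 of these comparisons, the opposite order to that with all lists. Width ranked higher for H3K9cr at 11801, 10446, 11102 and 11407, and for H3K9ac at 6713, 6758, 6969 and 6763.

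Position split these counts. At the 10648 regions within 2000 bp of a start, fold enrichment ranked higher for H3K9cr at 2461 (23.1%) and for H3K9ac at 1437 (13.5%). At the 10946 regions away from starts it ranked higher for H3K9cr at 1884 (17.2%) and for H3K9ac at 3286 (30.02%). Width showed a wider split. At starts it ranked higher for H3K9cr at 4548 regions (42.7%) and for H3K9ac at 636 (5.97%). Away from starts it ranked higher for H3K9cr at 2126 (19.4%) and for H3K9ac at 3286 (30.02%), and 412 of the 423 large gaps in favour of H3K9ac lay there. In the comparisons of 3 lists, fold rank at starts was higher for H3K9cr at 38.6% to 42.8% and for H3K9ac at 25.4% to 29.6%, and width rank for H3K9cr at 54.3% to 61.9% and for H3K9ac at 14.1% to 16.8%.

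**Figure D3:**
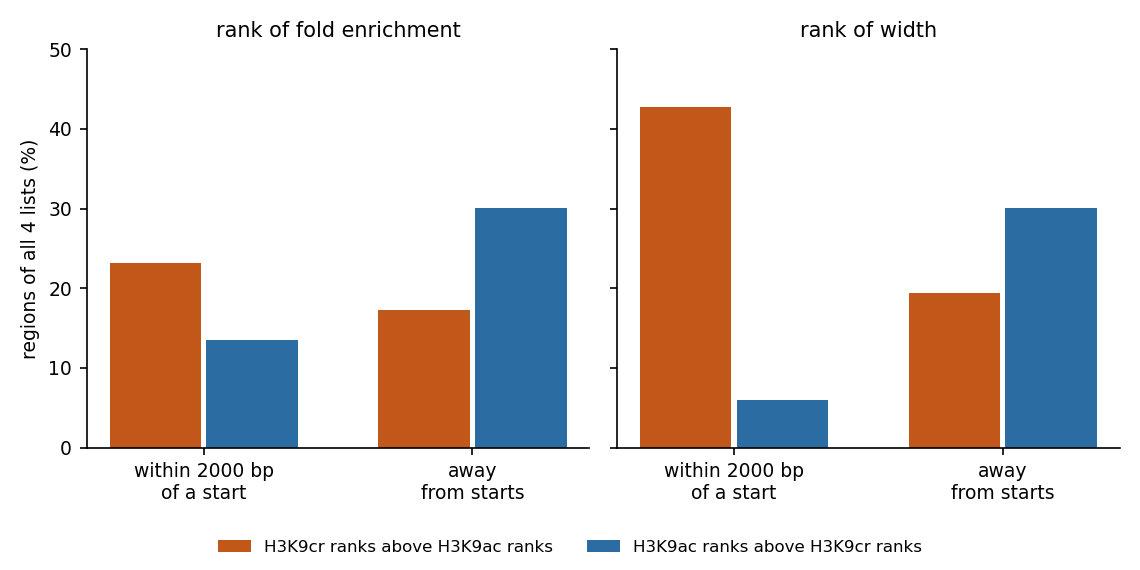
Share of regions called in all 4 lists (percent, vertical axis) in which both ranks of H3K9cr exceeded both ranks of H3K9ac, or the reverse, for fold enrichment and width, at starts and away from them. By width at starts, the H3K9cr bar stands at 42.7% and the H3K9ac bar at 5.97%.

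As a signed median over many regions, the shift between the marks was small but larger than that between lists of the same mark. At a single region, sign left aside, the fold differences of the 2 kinds overlapped in size. The median absolute fold rank difference was 4.17 to 5.68 points between marks, beside 4.18 within H3K9cr and 4.87 within H3K9ac. For width it was 4.90 to 6.42 points between marks, beside 4.52 within H3K9cr and 4.27 within H3K9ac. At starts the median rank difference in fold enrichment, H3K9cr minus H3K9ac, was 0.54 to 0.83 points over the 4 pairs of lists, beside 0.09 between the H3K9cr and 0.13 between the H3K9ac lists. Away from starts it was -2.02 to -1.49 points, beside -0.15 within H3K9cr and -0.25 within H3K9ac. For width at starts it was 2.05 to 3.36 points, beside -0.91 within H3K9cr and -0.05 within H3K9ac. For width away from starts it was -1.56 to -1.19 points, beside -0.47 within H3K9cr and -0.15 within H3K9ac. In base pairs, median width at starts was 1823.5 and 1644 bp in the H3K9cr lists and 1786.5 and 1819 bp in the H3K9ac lists, so the absolute widths overlapped between the marks. Away from starts it was 887 and 696 bp in the H3K9cr lists and 1047 and 1066.5 bp in the H3K9ac lists, and here every H3K9cr value was lower.

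**Figure D4:**
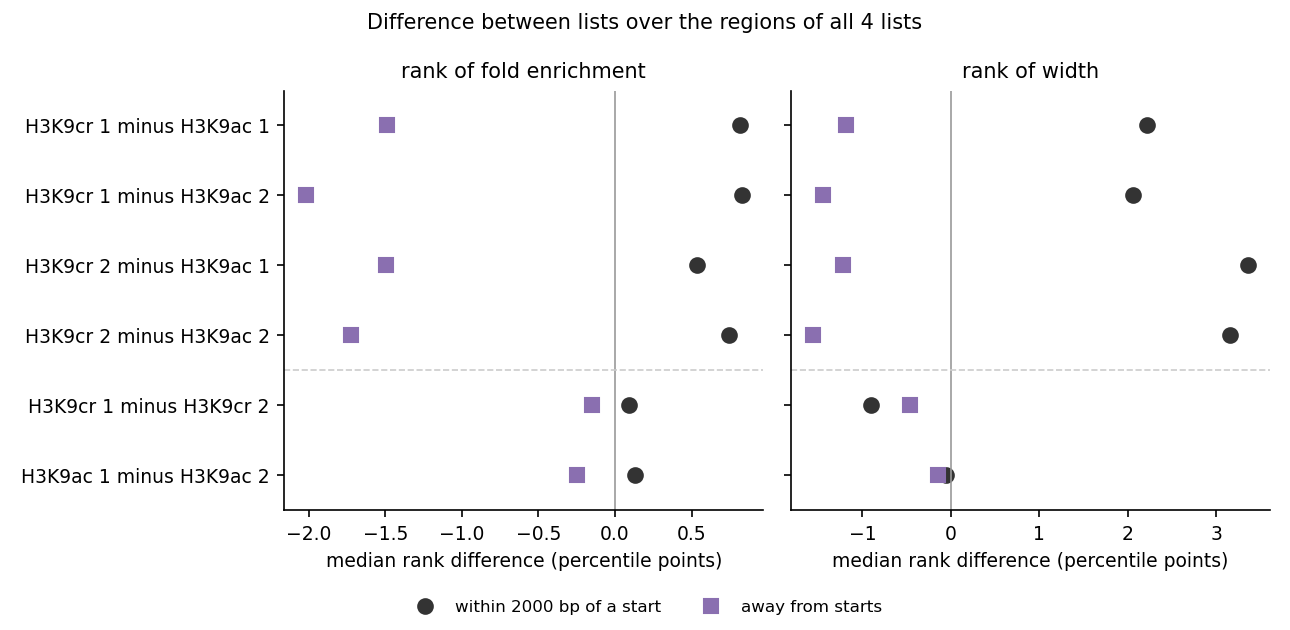
Median difference in rank (percentile points, horizontal axis) between pairs of lists over regions called in all 4, at starts (circles) and away from starts (squares). Above the dashed line H3K9cr minus H3K9ac, where fold differences lie at 0.54 to 0.83 at starts and at -2.02 to -1.49 away from them, and below it the differences within a mark.

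By fold rank, longer regions leaned towards H3K9ac in both places. The share with higher fold rank for H3K9cr at starts was 43.3% under 1000 bp, 28.0% from 1000 to 1999 bp, 17.1% from 2000 to 2999 bp and 9.97% from 3000 bp. The share for H3K9ac at starts was 5.58%, 9.28%, 15.6% and 24.4% over the same lengths. Away from starts, the fold rank was higher for H3K9cr in 29.1%, 13.7%, 5.07% and 5.0% over the same lengths, and for H3K9ac in 14.8%, 30.7%, 52.1% and 58.7%. In each length class the H3K9cr share was larger at starts than away from them, and the H3K9ac share larger away from starts than at them. By fold, H3K9ac nevertheless had the larger share at starts from 3000 bp, and H3K9cr the larger share away from starts under 1000 bp. By width at starts, H3K9cr had the larger share in every length class. Its width rank was higher in 59.3%, 50.2%, 34.0% and 31.0% over the same lengths, and that of H3K9ac in 2.87%, 3.69%, 8.11% and 9.26%. The length of a region is the span of the peaks of all 4 lists, so it is not independent of the widths.

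H3K18la also differed with the direction of the rank difference. Both E13.5 H3K18la lists had a peak in 69.4% of the regions with higher fold rank for H3K9cr, against 97.1% of those with higher fold rank for H3K9ac. For width the shares were 75.8% for H3K9cr and 97.7% for H3K9ac. Regions were then compared at like enrichment. Among those with a mean fold rank up to 20, H3K18la was called in 53.7% of regions with the H3K9cr rank higher and 95.9% of those with the H3K9ac rank higher. From 40 to 60 the shares were 68.3% for H3K9cr and 95.9% for H3K9ac, and from 80 to 100 they were 97.5% for H3K9cr and 99.3% for H3K9ac. Regions with the H3K9cr rank higher were also shorter, with a median of 1250 bp against 1914 bp, and what length contributes to this difference was not tested. ATAC-seq was nearer to even, with 47.8% and 51.8% by fold, H3K9cr first.

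The largest fold gaps in favour of H3K9cr at a start were all at regions below the median rank. Gxylt2, a xylosyltransferase that extends sugars on Notch, had folds of 17.0 and 14.7 in the H3K9cr lists and 4.96 and 5.60 in the H3K9ac lists, with ranks of 42.9 and 42.4 for H3K9cr and 5.7 and 12.7 for H3K9ac. Kcnj5, a G protein-gated potassium channel, had 8.92 and 8.72 in H3K9cr and 2.81 and 3.67 in H3K9ac. Htr1f, a serotonin receptor, had 10.1 and 10.8 in H3K9cr and 5.35 and 4.53 in H3K9ac. Deup1, which multiplies centrioles in multiciliated cells, had 12.3 and 15.8 in H3K9cr and 5.90 and 5.71 in H3K9ac. Extl1, an exostosin-like glycosyltransferase, had 11.8 and 10.3 in H3K9cr and 6.14 and 5.11 in H3K9ac. The 2 lists of each mark lay on the same side at all 5, and only Deup1 had a peak in both E13.5 H3K18la lists.

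In the other direction, Fgfr2, a fibroblast growth factor receptor of neural progenitors, had folds of 2.97 and 4.13 in the H3K9cr lists and 7.27 and 7.19 in the H3K9ac lists, at 1134 bp from an annotated start. Btbd17 had 45.4 and 42.6 in H3K9cr and 56.3 and 61.2 in H3K9ac, which were ranks of 66.7 and 68.9 for H3K9cr and 86.0 and 90.5 for H3K9ac. Fam118a had 6.48 and 6.57 in H3K9cr and 10.7 and 10.1 in H3K9ac. Casq1, the calcium store protein of skeletal muscle, had 5.01 and 5.80 in H3K9cr and 9.12 and 9.33 in H3K9ac. Zfp780b, a zinc finger gene, had 51.4 and 45.4 in H3K9cr and 58.7 and 51.3 in H3K9ac, so its raw folds overlapped between the marks although its ranks did not. All 5 had H3K18la in both E13.5 lists.

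Away from starts the gaps for H3K9ac were larger, and regions there were chosen after their values were seen. A region in the gene body of Fbrsl1, a relative of Auts2, at chr5:110415450-110418406 had folds of 7.66 and 10.4 in the H3K9cr lists and 24.9 and 23.7 in the H3K9ac lists. A region in Znrf3, a ubiquitin ligase that removes Wnt receptors, at chr11:5391167-5392048 had 4.73 and 4.53 in H3K9cr and 9.74 and 8.79 in H3K9ac. In Nfia, a factor of gliogenesis, a region at chr4:97924709-97927865 was covered over 315 and 292 bp by H3K9cr and over 3157 and 2175 bp by H3K9ac. Its folds overlapped, with 6.62 and 6.57 in H3K9cr and 8.46 and 4.53 in H3K9ac. Nfia, whose span is 541 kb, also held 10 of the H3K9ac-only regions, the most of any gene, followed by Gse1 with 8.

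By width at a start, Jakmip3, a microtubule-associated protein of neurons, was covered over 1258 and 1058 bp in the H3K9cr lists and 610 and 537 bp in the H3K9ac lists, while its folds overlapped (8.48 and 5.73 in H3K9cr, 8.43 and 4.80 in H3K9ac). Cebpa, a transcription factor of myeloid and fat cells, had 1402 and 1428 bp in H3K9cr and 539 and 871 bp in H3K9ac. Raver2 had 1306 and 1365 bp in H3K9cr and 816 and 678 bp in H3K9ac. Ccp110, a centriole cap protein, had 1605 and 1512 bp in H3K9cr and 1084 and 1059 bp in H3K9ac. Syde2, a GTPase activator, had 2536 and 2293 bp in H3K9cr and 1653 and 1711 bp in H3K9ac. Each of the 5 was wider in both H3K9cr lists by base pairs as well as by rank.

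H3K9ac was the wider mark at Cnga3, a cone photoreceptor channel, with 600 and 437 bp in H3K9cr and 1683 and 1961 bp in H3K9ac. Lrp8, the Reelin receptor of migrating cortical neurons, had 1585 and 1347 bp in H3K9cr and 2771 and 2534 bp in H3K9ac. Adgrg1, an adhesion receptor of radial glia, had 229 and 340 bp in H3K9cr and 1016 and 1355 bp in H3K9ac, in a region 1752 bp from a start. Gpr179, a receptor of retinal bipolar cells, had 273 and 200 bp in H3K9cr and 936 and 885 bp in H3K9ac. Fam118a, named above for its fold, had 1215 and 950 bp in H3K9cr and 1908 and 2046 bp in H3K9ac. Regions at Cnga3, Adgrg1 and Gpr179 did not include the start itself.

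**Figure D5:**
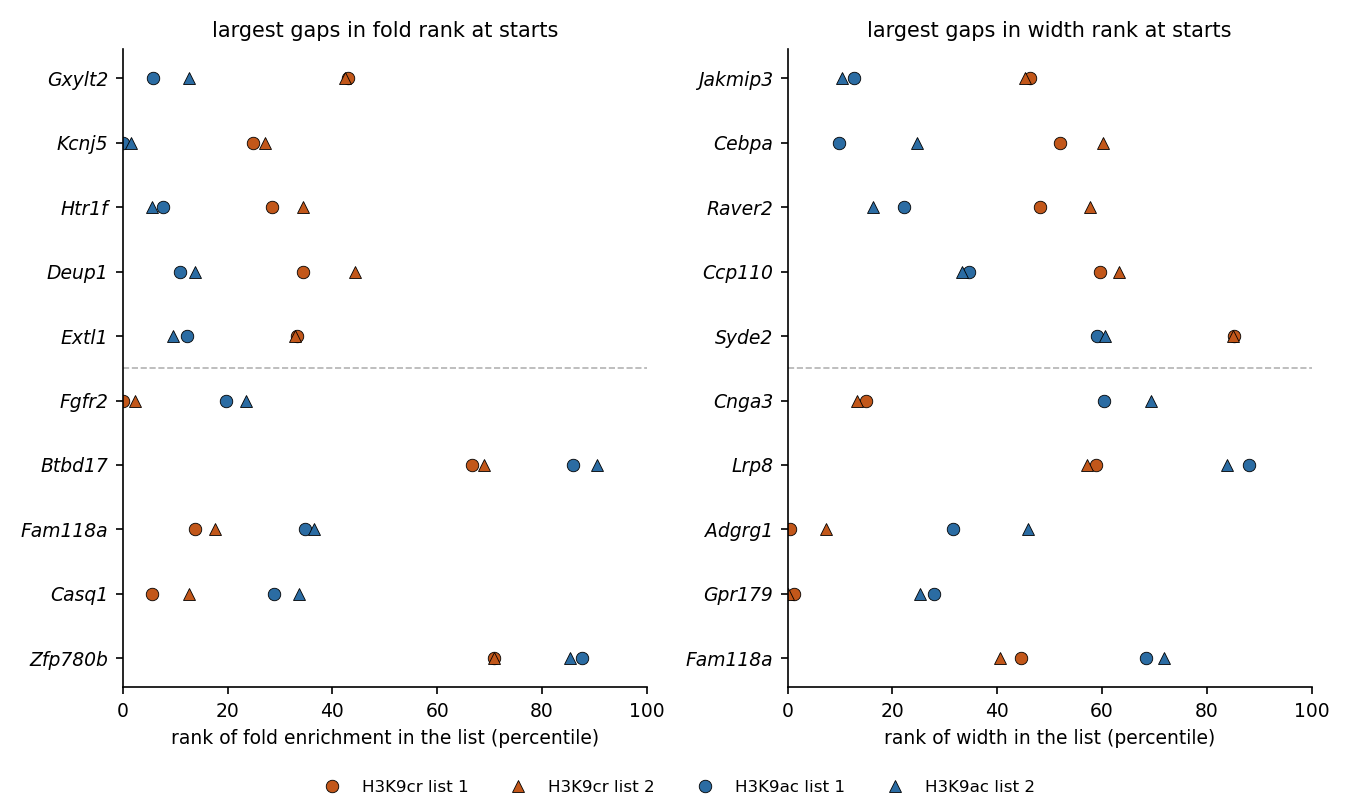
Rank within each list (percentile, horizontal axis) of the regions at starts with the largest gaps in fold enrichment (left panel) and width (right panel), in the H3K9cr lists and the H3K9ac lists. Genes above the dashed line ranked higher for H3K9cr and those below it for H3K9ac, as at Gxylt2 with 42.9 and 42.4 for H3K9cr and 5.7 and 12.7 for H3K9ac by fold.

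Genes of the tissue were marked over long stretches by both marks. Pax6, a homeobox factor of radial glia, was covered over 21978 and 20293 bp in the H3K9cr lists and 22237 and 23714 bp in the H3K9ac lists. Tbr1, a T-box factor of early cortical neurons, had 14712 and 13527 bp in H3K9cr and 14334 and 14209 bp in H3K9ac. Nkx2-1, which marks the ventral telencephalon, had 12445 and 12356 bp in H3K9cr and 12416 and 12307 bp in H3K9ac. Width ranks overlapped between the marks at Pax6 and Tbr1, and at Nkx2-1 were higher for H3K9cr by 0.0166 points. Eomes, a T-box factor of intermediate progenitors, had folds of 20.2 and 17.2 in H3K9cr and 16.7 and 16.5 in H3K9ac, where the H3K9ac ranks were the higher by 1.5 points. Neurod2, a helix-loop-helix factor of young neurons, had 76.0 and 63.2 in H3K9cr and 35.7 and 36.0 in H3K9ac, which were ranks of 84.1 and 82.0 for H3K9cr and 70.3 and 73.4 for H3K9ac.

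Several lists with both marks throughout leaned to H3K9ac by rank of fold enrichment. No member of the forebrain identity list ranked higher for H3K9cr and 4 of 10 did for H3K9ac (Emx2, Lhx2, Dlx1 and Dlx2), and in the radial glia list the counts were 0 for H3K9cr and 3 of 13 for H3K9ac (Sox2, Gli3 and Id4). Dlx1 and Dlx2 lie next to each other and share a region. Intermediate progenitor genes gave 0 for H3K9cr and 5 of 8 for H3K9ac, cell cycle genes 0 and 5 of 16, and replication-dependent histones 0 and 8 of 20, again H3K9cr first. The 20 histone genes lie in 14 regions and the 8 in 5 of them, since neighbours share a region, and values at these near-identical copies are uncertain. Nuclear oxidative phosphorylation gave 3 for H3K9cr and 1 of 13 for H3K9ac. Any gap was counted, however small, and those for H3K9ac in these lists ran from -0.06 points at Mcm6 to -10.4 at Lhx2. Over all 10633 genes with a 4-list region, 2390 ranked higher for H3K9cr and 1450 for H3K9ac. Width rank did not show this lean: it was higher for H3K9cr at 1 and for H3K9ac at 0 forebrain identity genes, at 4 and 0 radial glia genes, 1 and 2 intermediate progenitor genes, 4 and 1 cell cycle genes, and 2 and 1 histone genes, in the same order. Over all genes it was higher for H3K9cr at 4500 and for H3K9ac at 611. The forebrain identity and histone lists had long regions, with median widths of 13933 and 4272 bp against 1881 bp over all genes, and the part of length in these counts was not tested. The lists were chosen with results of these data known, and their members were not tested as sets.

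Promoter letters were read at all starts of the RefSeq table. The median number of CpGs in the 300 bases was 21 at starts with both marks, 14 at the 43 starts with H3K9cr only, 5 at the 33 with H3K9ac only, and 3 at starts with no list. Among starts with both marks, CpG number differed little by direction, with a median of 20 where the fold rank was higher for H3K9cr and 22.5 where it was higher for H3K9ac. H3K9cr ranked higher by width at 41.2% of starts with 0 to 4 CpGs, 45.3% with 5 to 9, 39.8% with 20 to 24 and 40.1% with 30 to 67, and H3K9ac at 9.64%, 6.97%, 6.19% and 6.06% of the same starts. Motifs were searched on both strands as exact letters. TGACGTCA, the cyclic AMP response element, which itself holds a CpG, was present at 1.93% of starts with higher fold rank for H3K9cr, 4.55% with higher fold rank for H3K9ac and 2.26% of all starts. By width it was present at 2.60% for H3K9cr and 5.12% for H3K9ac. Among the 8 motifs it was singled out after its values were seen. The GC box GGGCGG was present at 64.9% of starts with higher fold rank for H3K9cr and 67.7% for H3K9ac (46.7% of all starts), and CCAAT at 35.0% for H3K9cr and 40.5% for H3K9ac (38.5% of all). The ETS core CCGGAAG, which also holds a CpG, was present at 15.03% for H3K9cr and 17.6% for H3K9ac (11.7% of all), and TATAAA at 5.91% for H3K9cr and 8.24% for H3K9ac (12.7% of all). The E box CAGCTG was present at 14.5% for H3K9cr and 15.7% for H3K9ac (15.7% of all), and AAGATGGC, read by YY1, at 4.23% for H3K9cr and 4.15% for H3K9ac (3.07% of all). All starts include those with no peak, so starts with both marks are the nearer comparison for these groups. Starts with both marks had TGACGTCA at 3.29%, GGGCGG at 66.6%, CCAAT at 37.7% and the ETS core at 17.3%. They had TATAAA at 6.32%, CAGCTG at 14.8% and AAGATGGC at 4.27%. The eighth motif was CG itself. A match of letters is a description and not evidence of binding.

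At E16.5 the contrast between starts and other regions was again present in lists that had no part in the E13.5 ranks. Of the E13.5 4-list regions also called in all 4 lists at E16.5, 10573 lay at starts. By E16.5 width, H3K9cr ranked higher at 22.3% of these and H3K9ac at 12.2%, against 42.7% for H3K9cr and 5.97% for H3K9ac at starts at E13.5. By E16.5 fold enrichment it was 20.5% for H3K9cr and 15.1% for H3K9ac at starts. Away from starts, at 10368 regions, E16.5 width ranked higher for H3K9cr at 14.8% and for H3K9ac at 23.5%, and fold enrichment at 12.8% for H3K9cr and 22.4% for H3K9ac. Single regions kept their direction less well. Of 4862 regions with higher fold rank for H3K9cr at E13.5, 22.3% ranked higher for H3K9cr and 14.1% for H3K9ac at E16.5. Of 4822 with higher fold rank for H3K9ac at E13.5, 11.2% ranked higher for H3K9cr and 26.1% for H3K9ac at E16.5. Over all 23447 regions called in all 4 lists at both stages, the E16.5 fold shares were 17.1% for H3K9cr and 18.2% for H3K9ac. Away from starts, 1811 regions had higher fold rank for H3K9cr at E13.5. By E16.5 fold, 17.2% of them ranked higher for H3K9cr and 17.8% for H3K9ac, beside 12.8% and 22.4% over all regions away from starts. At starts, 628 had higher width rank for H3K9ac at E13.5. By E16.5 width, 18.3% of those ranked higher for H3K9cr and 16.2% for H3K9ac, beside 22.3% and 12.2% over all regions at starts. With any gap counted, the other groups by place and direction had the larger share on their E13.5 side.

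RNA was compared between stages for the genes of each class, matched by symbol. Over 16237 tested genes, 4605 were higher (28.4%) and 4740 lower (29.2%) at E16.5 with an edgeR adjusted p under 0.05. Of the 36 genes with H3K9cr only at E13.5, 16 passed the filter on low counts, 10 of which were higher and 1 lower at E16.5. Of the 20 with H3K9ac only, 11 passed, 6 of which were higher and 0 lower. DESeq2 called 3 of the H3K9ac-only genes higher. Leaving out an RNA library gave 6 (without E16.5 replicate 2) to 10 H3K9cr-only genes higher, and 3 (without E13.5 replicate 2 or E16.5 replicate 1) to 4 H3K9ac-only genes higher. Genes with no list had 319 higher and 55 lower of 757 tested. The filter let low genes pass through the stage in which they were higher, so the counts for the 1-mark genes are a description only.

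Htr6 RNA was 2.51 and 2.67 CPM at E16.5, against 0.480 and 0.386 CPM at E13.5 (log2 difference 2.57), and it passed the filter on low counts through its E16.5 level. Fat1, a giant cadherin of radial glia and the H3K9cr-only gene that was lower, had 211 and 198 CPM at E16.5, against 250 and 248 CPM at E13.5 (log2 difference -0.29). Its H3K9cr peaks had folds of 5.28 and 3.70 at E13.5. All genes with both marks had 2763 higher (27.5%) and 3584 lower (35.7%) of 10031 tested at E16.5. Among genes with both marks, those with higher fold rank for H3K9cr had 744 higher (33.9%) and 594 lower (27.1%) of 2195 tested. Those with higher fold rank for H3K9ac had 312 higher (22.7%) and 589 lower (42.9%) of 1372. These fold classes were not counted under other RNA settings. By width rank the counts were 1285 higher and 1314 lower of 4220 tested for H3K9cr, against 139 higher and 243 lower of 580 for H3K9ac. With upper-quartile scaling the median log2 difference of all genes was 0.10, beside 0.01 with TMM, and all tested genes split into 5349 higher and 3820 lower.

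Jakmip3, wider in H3K9cr at E13.5, had 14.7 and 14.9 CPM at E16.5, against 1.08 and 0.551 CPM at E13.5 (log2 difference 4.19). Lrp8, wider in H3K9ac, had 543 and 563 CPM at E16.5, against 381 and 367 CPM at E13.5 (log2 difference 0.56, SE 0.042, edgeR adjusted p = 1.5e-05). Kcnj5, ranked higher by fold for H3K9cr, had 0.503 and 0.708 CPM at E16.5, against 3.003 and 1.99 CPM at E13.5. Gxylt2 was close to the detection floor at both stages, with 0.726 and 0.327 CPM at E16.5, against 0.721 and 0.607 CPM at E13.5. Genes with large gaps between the marks had RNA that was higher, lower or not called at E16.5.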

How the data were processed

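The authors deposited 1 peak list per library. The submitters' processing notes name Bowtie2 2.4.1 and MACS2 2.2.7.1, with GRCm38 as the build. Per the file headers, the columns hold the pileup signal at the summit, the p-value and q-value on a −log10 scale, and fold enrichment, a ratio over local background. Control, duplicate handling and read depth behind the lists are unknown here, so only ranks within a list were compared. RNA values were the authors' deposited expected counts (Salmon 1.1.0 in the submitters' processing notes), with library totals of 17059544 to 18485855.

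Peaks of the 4 lists were merged where they shared 1 bp or more. Regions were placed with RefSeq starts and gene spans (GRCm38.p6), within 2000 bp of any of 21045 starts of 17274 genes. Ranks were taken over the regions of all 4 lists. Peaks on other chromosomes were left out. Rounded RNA counts entered edgeR 4.0.16 under R 4.3.3 (quasi-likelihood test, TMM scaling, filterByExpr, Benjamini-Hochberg adjustment). Interval, rank and RNA steps were tested on simulated data. p-values measure only the spread between these libraries.

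For each of 6 kinds (1 mark only, fold rank and width rank, in each direction), up to 5 genes were named by the highest mean fold or the largest rank gap, with the 3 highest regions, listed genes in a 1-mark class and 6 genes of the tissue. Lists were matched by exact symbol. Members and gene lists were chosen with earlier results of these data known. Alternatives covered list length, q-value, overlap, window, fold and width definitions, single libraries, a replicate block, upper-quartile scaling, no filter and DESeq2 1.42.0.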

Additional observations from a re-analysis of the deposited data

Results flagged for a closer look

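Peaks on the Y chromosome, which the comparisons left out, numbered 11 and 8 in the H3K9cr lists and 14 and 12 in the H3K9ac lists.

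At some regions named above, the rank gap between the marks, H3K9cr minus H3K9ac, pointed one way at E16.5 and the other at E13.5, and these differences between the stages were not tested. The fold rank gap at Extl1 was -7.71 at E16.5, against 20.56 at E13.5. The fold rank gap at Neurod2 was -3.9 points at E16.5, against 8.64 at E13.5, with E16.5 folds of 65.7 and 48.2 in H3K9cr and 72.2 and 57.4 in H3K9ac. The fold rank gap in Znrf3 was 0.3 at E16.5, against -26.95 at E13.5. By width the gaps were within a point at Tia1 (-0.15 at E16.5, against 0.31 at E13.5) and Klf7 (-0.01 at E16.5, against 0.02 at E13.5).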

How the results depend on the processing

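Of 281 alternative values, 168 stayed close to the reported value and 113 moved. For counts and shares of rank groups, close meant within 1.5 times the reported value. For shares at a start it meant within an exact 95% binomial interval, which treats regions as independent. For H3K18la shares it meant a difference below the standard deviation between the 2 H3K18la lists. Among 19 pairs of values (H3K9cr beside H3K9ac, or RNA higher beside lower), the larger of the pair changed in 13 of 149 comparisons. Fold rank was higher for H3K9cr than for H3K9ac at more regions by −log10 p (6069 and 5755), pileup (6636 and 6112) and length-weighted fold (5074 and 5001), with the replicate block and without any 1 list, against 4971 and 5017 as reported. The gap of 20 points by fold turned without either H3K9ac list (193 and 185, 136 and 113). Genes with 1 mark only turned to 68 for H3K9cr and 85 for H3K9ac without H3K9cr list 1. With upper-quartile scaling RNA turned to 5349 higher and 3820 lower over all genes, and to 1496 and 1049 among genes with higher width rank for H3K9cr. With the same number of peaks in each list, 648 regions had H3K9cr only and 860 H3K9ac only, 32.3% and 96.2% of them with H3K18la, 1.86% of H3K9ac-only regions at a start, and 100 genes had H3K9cr only. A −log10 q of at least 5 gave H3K18la shares of 25.6% for H3K9cr only and 93.7% for H3K9ac only. Counting a region as shared at 50% coverage gave 505 H3K9cr-only and 4742 H3K9ac-only regions, with H3K18la in 30.1% and 91.7%. Windows of 1000 and 5000 bp gave 13 and 36 genes with H3K9ac only. The longest peak as width gave 145 regions with H3K9cr ahead by 20 points, and regions with 1 peak in each list gave 9 for H3K9cr and 13 for H3K9ac by fold and 241 for H3K9ac by width. DESeq2 called 3 H3K9ac-only genes higher. Causes were not tested, except that fewer lists or peaks loosen or tighten a class by construction.

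Leaving out 1 library loosened each class. Regions numbered 592 to 1882 for H3K9cr only, 2777 to 6840 for H3K9ac only and 24545 to 26550 for all lists. Shares at a start were 12.1% to 19.8% for H3K9cr only and 2.95% to 3.69% for H3K9ac only, and H3K18la shares 25.4% to 33.1% and 74.0% to 88.9%. Genes numbered 68 to 123 for H3K9cr only and 33 to 85 for H3K9ac only. Fold ranks were higher at 8318 to 9068 regions for H3K9cr and 8017 to 8857 for H3K9ac, by 20 points at 85 to 193 and 113 to 185, and at starts at 4115 to 4554 and 2703 to 3148. Width ranks were higher at 10446 to 11801 regions for H3K9cr and 6713 to 6969 for H3K9ac, by 20 points at 150 to 221 and 716 to 1155, and at starts at 5779 to 6595 and 1504 to 1789. RNA counts were 6 to 10 higher among H3K9cr-only genes, and 3 to 4 higher and 0 to 1 lower among H3K9ac-only genes.

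Replicate numbers are shared between the marks but nothing in the labels ties them to a day or embryo, so pairing rests on the number alone. By fold enrichment, Spearman's rho was 0.963 and 0.953 between same-numbered lists of the marks and 0.940 and 0.945 between the others, a hint from the data only. With the replicate block, added after seeing the data, each H3K9cr list was set against the H3K9ac list of its number: fold rank was higher for H3K9cr at 7860 regions and for H3K9ac at 7369, by 20 points at 33 for H3K9cr and 46 for H3K9ac, and at starts at 4039 and 2411. Width was higher by 20 points at 64 regions for H3K9cr, and at starts at 1060 for H3K9ac. In RNA the block gave 4675 genes higher and 4851 lower at E16.5, with a correlation of 0.125 between the deviations of same-numbered libraries over 2 pairs.

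What limits these results is the unknown read depth, 2 lists per mark, 1 antibody lot per mark, the caller's threshold behind every absent peak, and starts missing from the RefSeq table.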
